A study of Mus musculus with 10 samples.

Results

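The replication-dependent histone genes of the mouse neocortex were followed through ribosome footprints. They were taken as every gene of the footprint count table whose mouse symbol starts with Hist, which gave 66 of 22373 genes. Classed by symbol, 6 of these were genes of the linker histone H1, 19 of H2A, 16 of H2B, 12 of H3 and 13 of H4. Among the H2A genes, Hist1h2al is listed in RefSeq under a pseudogene name, H2af-ps2, and is named here for that entry. By name, 53 belong to the Hist1 cluster, 10 to Hist2, 2 to Hist3 and 1 to Hist4. All 66 passed the filter on low counts.

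Histones package DNA: pairs of H2A, H2B, H3 and H4 form the core on which DNA is wound, and H1 binds the DNA between cores. Replication-dependent histone genes occur as many nearly identical copies that are used mainly in S phase, when new DNA must be packaged. Most of their mRNAs end in a stem-loop in place of a poly(A) tail, and this stem-loop is bound by the protein SLBP. In the developing neocortex, S phase takes place in radial glia and intermediate progenitors, whereas neurons have left the cell cycle.

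The libraries came from neocortex of wild-type CD-1 mice of both sexes at 5 stages with 2 replicates each. The embryonic stages were E12.5 and E14, then E15.5 and E17, and the last was P0, the day of birth. No stage carried a transgene or received a treatment, and each library pooled brains, so the values are averages over animals and cell types. The fragments were those protected by ribosomes after RNase digestion, taken from the monosome fraction. Total counts ranged from 7544404 in P0 replicate 1 to 36129988 in E14 replicate 2, so P0 replicate 1 was the shallowest library. The p-values measure only the spread between these pooled libraries.

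The labelled tissue was checked against 9 neocortex markers, of which none was at 0 at any stage and whose summed level ranged from 534 to 1003 CPM (counts scaled to a common library size by the TMM method). Markers of other cells changed with stage. The sum over 8 proliferation markers was 931 and 966 CPM at E12.5 and 62.9 and 61.3 CPM at P0, and the sum over 7 markers of radial glia and progenitors was 1165 and 1259 CPM at E12.5 and 202 and 187 CPM at P0. The sum over 5 markers of postmitotic neurons was 2090 and 2050 CPM at E12.5 and 7311 and 8182 CPM at P0. Sums over 10 red blood cell markers were 11210 and 11610 CPM at E12.5 and 1862 and 1439 CPM at P0, and those over 8 markers of meninges fibroblasts were 369 and 383 CPM at E12.5 and 26.5 and 16.97 CPM at P0. Choroid plexus markers, 6 genes, stood at 1133 and 1141 CPM in the E14 libraries and had come down to 13.6 and 11.5 CPM by E15.5. Markers of endothelium summed to at most 31.8 CPM and those of microglia to at most 28.4 CPM, whereas those of the ganglionic eminence were at 15.1 and 15.9 CPM at E12.5 and at 173 and 166 CPM at P0, and those of astrocytes and the oligodendrocyte lineage at 36.1 and 39.9 CPM at E12.5 and 172 and 134 CPM at P0. No gene of these lists was at 0 in both libraries of a stage, except Kcnj13 of choroid plexus at P0. The part of these shifts in the results was not tested.

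To show what the members share and where they differ before their first base, the 150 bases upstream of the transcription start are printed for 6 genes of 3 classes. In each pair the first gene had the largest fall of its class from E12.5 to P0, and the second had the smallest among members with at least 100 counts on average. The sequences are from RefSeq on GRCm38.p6, at chr13:23763518-23763667 (plus strand) for Hist1h1a, chr13:23738657-23738806 (plus) for Hist1h1c, chr13:21716184-21716333 (minus) for Hist1h2bl, chr11:58948761-58948910 (plus) for Hist3h2ba, chr13:23761250-23761399 (minus) for Hist1h4a and chr6:136804432-136804581 (minus) for Hist4h4. Capitals mark matches to the CCAAT box, and to the TATA box searched by the letters TATAAA, where a match on the other strand appears as the reverse complement.
Hist1h1a: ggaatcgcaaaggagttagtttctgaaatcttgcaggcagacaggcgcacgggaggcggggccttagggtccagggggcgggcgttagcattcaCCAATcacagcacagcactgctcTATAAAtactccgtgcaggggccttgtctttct
Hist1h1c: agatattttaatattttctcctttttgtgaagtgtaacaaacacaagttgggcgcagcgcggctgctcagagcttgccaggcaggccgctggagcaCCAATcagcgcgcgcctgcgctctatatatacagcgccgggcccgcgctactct
Hist1h2bl: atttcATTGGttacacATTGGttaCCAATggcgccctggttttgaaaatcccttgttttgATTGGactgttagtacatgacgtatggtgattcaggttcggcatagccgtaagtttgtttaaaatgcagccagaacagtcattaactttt
Hist3h2ba: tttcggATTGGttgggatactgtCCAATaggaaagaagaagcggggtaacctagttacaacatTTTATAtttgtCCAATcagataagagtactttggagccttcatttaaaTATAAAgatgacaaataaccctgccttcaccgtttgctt
Hist1h4a: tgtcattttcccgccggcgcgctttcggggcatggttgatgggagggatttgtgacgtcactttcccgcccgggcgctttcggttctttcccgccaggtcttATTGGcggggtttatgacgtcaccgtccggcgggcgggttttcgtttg
Hist4h4: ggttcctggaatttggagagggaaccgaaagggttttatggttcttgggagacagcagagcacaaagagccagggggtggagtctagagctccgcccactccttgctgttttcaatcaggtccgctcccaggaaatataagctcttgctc

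A promoter with a single RefSeq match was held for 59 members. In the 250 bases before the start, on either strand, CCAAT was present in 48 of 59 (81.4%), against 33.8% of 32851 promoters of the same length. It was present in all 6 H1, 17 H2A and 14 H2B promoters, in 8 of 10 H3 promoters and in 3 of 12 H4 promoters. TATAAA was present in 29 of 59 (49.2%), against 12.4% of all promoters. The octamer ATTTGCAT was present in 7 of 17 H2A and 6 of 14 H2B promoters and in none of the H1, H3 or H4 promoters, against 1.6% of all promoters. No motif contains the letters of another, and a match is a description of the letters only. In 9 cases an H2A and an H2B gene lay head to head with starts 164 to 281 bases apart, so that both share the sequence between them. The windows of such partners overlap, and their matches are not separate counts, although the windows are not identical.

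H2B genes took the largest share of the footprint counts and H1 genes the smallest at E12.5, H3 and H4 genes took nearly the same, and every class held less at P0. At E12.5, H2B genes held 13.0% and 14.4% of all counts in the replicates, and at P0 they held 3.12% and 2.04%. H2A genes went from 8.23% and 8.28% to 1.89% and 1.36%. H3 genes held 6.01% and 7.79% at E12.5 and 1.99% and 0.900% at P0. H4 genes held 6.14% and 7.38% at E12.5 and 2.57% and 1.84% at P0. The 6 H1 genes held far less, 0.674% and 0.683% at E12.5 and 0.263% and 0.173% at P0. In each class the 2 values at P0 lay below those at E12.5, without overlap, and P0 replicate 1 lay above P0 replicate 2. The classes hold different numbers of genes, so these shares describe the count table and not the amount per gene.

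**Figure D1:**
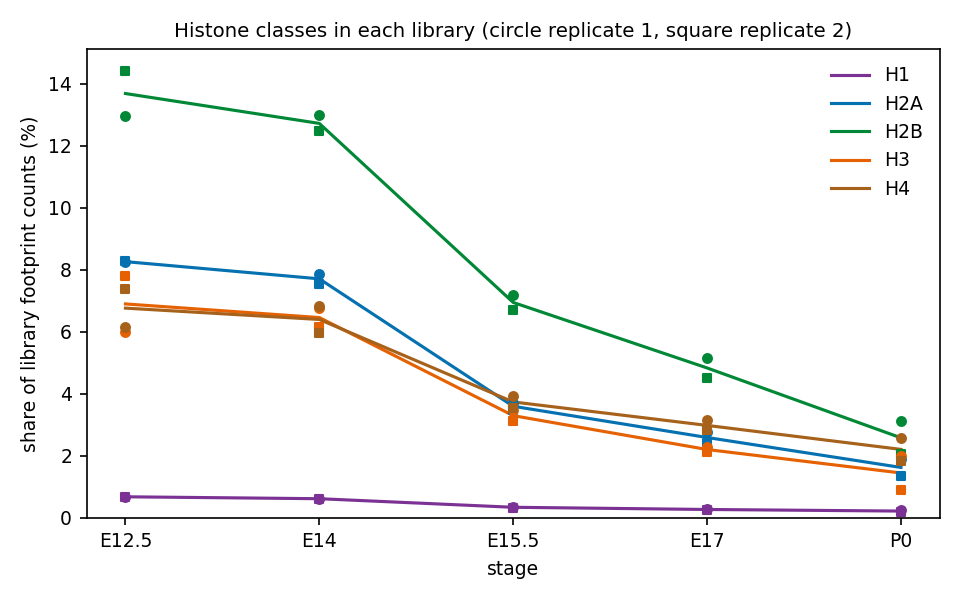
Share of all footprint counts (%) held by each histone class in each of the 10 libraries, by stage; lines join stage means, circles are replicate 1 and squares replicate 2. In every class the values at E15.5 lie below those at E14, and H1 stays at or below 0.683% throughout.

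Reads were allowed to match several places, and how reads shared by several genes were assigned in this table is not given in the sources used here. If a read was counted for every copy it matched, the shares of all Hist genes would count 1 footprint several times. The paper gives a median number of footprint reads mapped to protein coding transcripts. Every library total here except that of P0 replicate 1 lay above this median, and the reason was not tested. Counting a single member per class, the one with the most counts, both among the members and in the total, gave a mean share of 5.76% for E12.5, 5.24% for E14, 2.37% for E15.5, 1.64% for E17 and 0.963% for P0, against 36.3%, 33.9%, 17.9%, 12.9% and 8.07% with all 66 counted. This alternative was chosen after seeing the data. The order of the stages was the same on both counts.

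The mix of classes within the Hist counts also differed between stages. H4 made up 18.1% and 19.2% of Hist counts at E12.5, 23.1% and 23.2% at E17, and 26.1% and 29.2% at P0. H2B made up 38.1% and 37.4% at E12.5 and 31.7% and 32.3% at P0. For both classes the values at P0 lay outside those of the other 8 libraries. The ratio of H4 counts to H3 counts, classes that pair in the core, was 1.02 and 0.948 in the E12.5 libraries, 1.01 and 0.968 in those of E14, 1.14 and 1.13 in those of E15.5 and 1.38 and 1.32 in those of E17. At P0 it was 1.29 and 2.05, so that the replicates disagreed there: H3 made up 20.3% of the Hist counts in P0 replicate 1 and 14.2% in P0 replicate 2. The differences in mix were not tested.

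Many copies had nearly the same count in every library. Of 65 members compared (Hist1h1t, a testis H1, was too low), 20 fell into 7 groups in which linked members differed by less than 5% in all 10 libraries, and no linked pair joined different classes. Hist1h2bq and Hist1h2br had 613498 and 613499 counts in E12.5 replicate 2 and never differed by more than 0.0020%. Hist2h2aa1 with Hist2h2aa2, and Hist2h3c1 with Hist2h3c2, were as close, at most 0.0030% and 0.0033% apart, and Hist2h3b lay within 4.15% of the latter. The other groups were Hist1h2ab, Hist1h2ad, Hist1h2ag, Hist1h2ah, Hist1h2ai and Hist1h2ao, then Hist1h2ac with Hist1h2ae, Hist1h2bk with Hist1h2bl, and Hist1h3d, Hist1h3h and Hist1h3i. Such copies are not separate measurements, and every count of members below is to be read with that in mind.

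Levels were compared only within a class, whose members in general have coding sequences of about the same length, although these lengths were not checked here. In H3 the 9 Hist1 copies were almost level: the highest, Hist1h3b, had 111446 counts per library on average, 1.10 times the median of the class, and the 3 Hist2 copies lay lower, down to 65781 in Hist2h3b. In H4 the highest, Hist1h4h, had 131184, 1.26 times the median, and the lowest, Hist4h4, had 17672. In H2A, Hist1h2ap had 91715 and Hist1h2aa, known as a testis gene, had 16714, which may include reads shared with other H2A copies. H2B was the exception, with 4 members at 1.5 times the class median or more. Hist1h2bq and Hist1h2br each had 294896 mean counts, 2.21 times the median, and Hist1h2be had 271728. The fourth, Hist1h2bp, named here after its values were seen, had 250962. In RefSeq these 4 genes span 3788, 3788, 37455 and 14079 bases, whereas Hist1h2bl spans 473 bases. Hist1h2bc, with a span of 8282 bases, had 142133 mean counts, so a long span did not always go with a high count. In H1, Hist1h1c had 31393 and Hist1h1t 14.9.

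**Figure D2:**
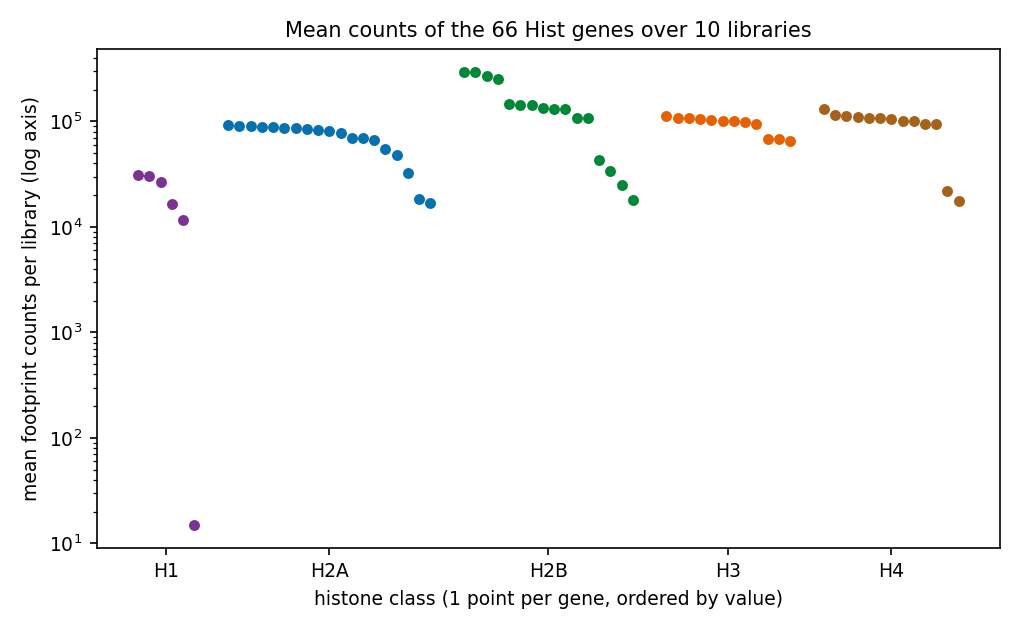
Mean footprint counts per library over the 10 libraries (log axis) for the 66 Hist genes, 1 point per gene, ordered within each class. The 9 Hist1 genes of H3 form a flat row, H2B has 4 genes above the rest, and Hist1h1t stands lowest at 14.9 counts. Levels are to be compared within a class only.

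The change at each step was tested across all 13484 genes that passed the filter with limma-voom over all 10 libraries, and a gene was called at a Benjamini-Hochberg adjusted p under 0.05 and an absolute log2 fold change of at least 0.32. Between E12.5 and E14, 0 of 66 members were called in either direction (background 0.141% of genes called lower and 0.497% called higher), with 2 members at an unadjusted p under 0.05. The edgeR quasi-likelihood test also called 0, and DESeq2 called 1, Hist1h1b, named here after its values were seen. The median fitted log2 fold change over the members was -0.15, against -0.0015 over all genes.

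Between E14 and E15.5 the histone genes fell in every class. There 64 of 66 members were called lower and 0 higher (background 19.6% lower, 16.5% higher), with a median log2 change of -1.24 against -0.0086 over all genes. The calls covered 5 of 6 H1, 19 of 19 H2A, 15 of 16 H2B, 12 of 12 H3 and 13 of 13 H4 genes, with class medians of -1.16, -1.41, -1.17, -1.27 and -1.09. The members not called were Hist1h1t (log2 change -0.97, limma adjusted p = 0.167) and Hist3h2ba (log2 change -0.56, limma adjusted p = 0.0869). Hist1h2ap, the H2A gene with the most counts, went from 6351 and 6044 CPM to 2422 and 2280 CPM. Its log2 change was -1.40 (limma adjusted p = 0.000239). Hist1h4h, first among the H4 genes, went from 8654 and 7168 CPM to 4071 and 3724 CPM, a log2 change of -1.02 (limma adjusted p = 0.0065). For all 66 members both E15.5 values lay below both E14 values, against 38.8% of all genes tested. Without E15.5 replicate 2 there were 48 calls. The marker sums of choroid plexus and meninges fibroblasts given above had their largest drop at this step too, and their part was not tested. In such bulk footprint samples alone, fewer cells of a type, less RNA per cell and fewer ribosomes per RNA cannot be told apart. The paper also sequenced RNA from the same lysates and derived translation efficiency per gene, and these values were not used here.

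From E15.5 to E17 the members moved less. Only 7 were called lower and 0 higher (background 3.43% lower, 5.61% higher), although 65 of 66 were fitted below 0 and the median was -0.55 against -4.6e-05 over all genes. At an unadjusted p under 0.05 there were 42. Calls fell on 2 H1, 4 H2A, 1 H2B and no H3 or H4 genes. Hist1h1a fell from 308 and 292 CPM to 181 and 164 CPM, a log2 change of -0.80 (limma adjusted p = 0.00795). The number of calls rested on the fit: it was 61 when only the 4 libraries of these stages were fitted, 50 without either P0 library and 0 without any 1 library of E15.5 or E17.

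From E17 to P0, 39 of 66 were called lower and 0 higher (background 11.1% lower, 9.46% higher), with a median of -0.86 against -0.023 over all genes. They were 2 of 6 H1, 16 of 19 H2A, 14 of 16 H2B, 0 of 12 H3 and 7 of 13 H4 genes. The H3 genes had a median of -0.82, but their P0 libraries stood far apart: Hist1h3b had 2038 and 1878 CPM at E17 and 1531 and 744 CPM at P0 (limma adjusted p = 0.0743). Over all members, the median became -1.14 when P0 replicate 1 was left out and -0.41 when P0 replicate 2 was. Hist1h2bq, in contrast, had 6209 and 5414 CPM at E17 and 3149 and 2156 CPM at P0, a log2 change of -1.15 (limma adjusted p = 0.00475). This count too rested on single libraries. It was 64 without P0 replicate 1, 7 without E17 replicate 1, and 0 with only the 4 libraries of E17 and P0, where 39 members had an unadjusted p under 0.05; edgeR and DESeq2 on all libraries called 37 and 46.

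**Figure D3:**
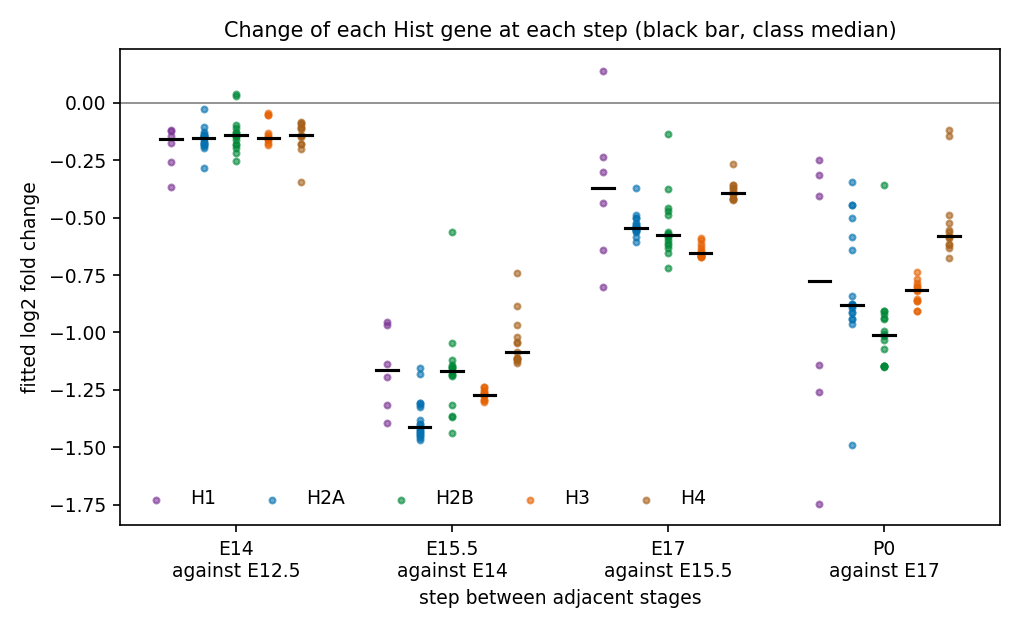
Fitted log2 fold change of each Hist gene at the 4 steps between adjacent stages; each point is a gene, colours mark classes and black bars class medians. The class medians lie lowest at the step from E14 to E15.5, from -1.09 to -1.41, and nearest to 0 at the step from E12.5 to E14.

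Over the whole period, from E12.5 to P0, 66 of 66 members were called lower and 0 higher (background 32% lower, 30.1% higher), with a median log2 change of -2.87 against -0.013 over all genes. With sample quality weights 65 were called, without Hist1h1t, which had 19 and 22 counts at E12.5 and 4 and 4 at P0. Class medians were -2.45 for H1, -3.01 for H2A, -2.97 for H2B, -2.87 for H3 and -2.19 for H4. In every member both P0 values lay below both E12.5 values, against 38.8% of all genes. This comparison shares its libraries with the first and last steps.

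Of the classes, the linker histone genes had the widest range of fitted change from E12.5 to P0. No H1 gene was among the near-equal copies, whereas core histone copies may share reads, so these ranges are not on equal terms. Hist1h1a had 916 and 972 CPM in the E12.5 libraries, 796 and 780 in those of E14, 308 and 292 in those of E15.5, 181 and 164 in those of E17 and 84.6 and 72.6 in those of P0. Its log2 change over the period was -3.60 ± 0.11 (SE, 2 libraries per stage, limma adjusted p = 4.0e-07). Hist1h1b, outside the rule for named genes and named after its values were seen, changed by -3.59 (limma adjusted p = 4.5e-07). Hist1h1c, known to yield polyadenylated mRNA in cells that have stopped dividing, had 1844 and 2084 CPM at E12.5, 951 and 910 by E15.5, 807 and 772 by E17, and 798 and 501 by P0. Its log2 change was -1.62 (limma adjusted p = 0.000136), and from E17 to P0 it was not called (-0.31, limma adjusted p = 0.273). Hist1h1e changed by -1.83 and Hist1h1d by -2.21 over the period.

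The composition of H1 followed. Hist1h1a and Hist1h1b together made up 29.3% and 27.4% of H1 footprints in the E12.5 libraries, 25.6% and 26.2% in those of E14, 22.5% and 22.8% in those of E15.5, 18.7% and 17.9% in those of E17, and 9.81% and 12.03% at P0. No value of a later stage overlapped one of an earlier stage. Hist1h1c made up 23.3% and 24.7% at E12.5 and 37.0% and 33.9% at P0, while Hist1h1d stayed between 24.8% and 26.4% in all 10 libraries. The ratio of Hist1h1c to Hist1h1a counts was 2.01 and 2.15 at E12.5 and 9.43 and 6.90 at P0. Hist1h1t stayed at or below 1.33 CPM in each library.

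**Figure D4:**
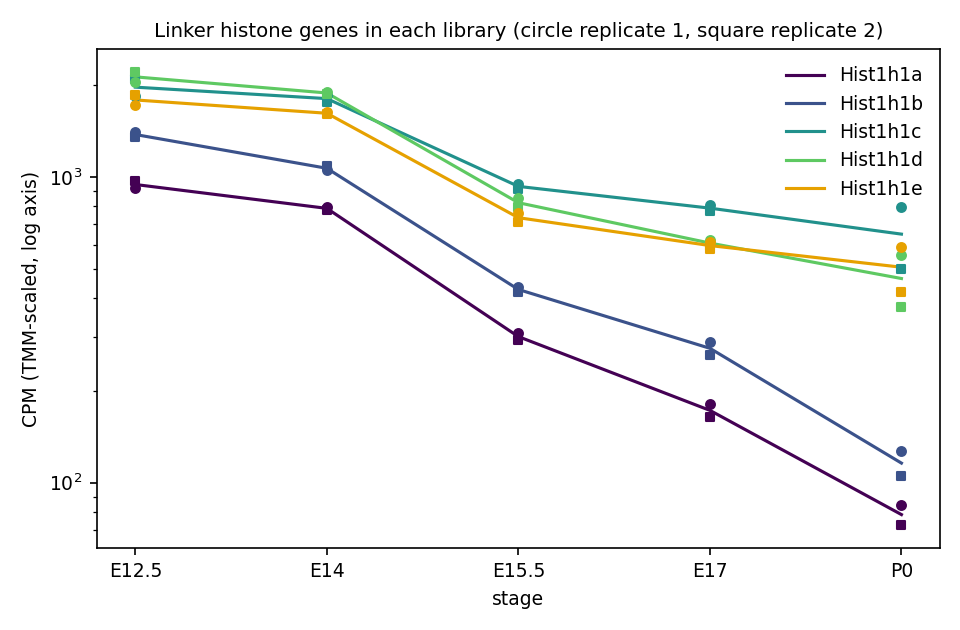
Level of 5 linker histone genes (CPM, log axis) in each library by stage; lines join stage means, circles are replicate 1 and squares replicate 2. Hist1h1a ends at 84.6 and 72.6 CPM at P0, below Hist1h1c at 798 and 501 CPM.

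Over the period from E12.5 to P0, some core histone genes outside the Hist1 cluster had smaller fitted falls than the Hist1 genes of their class. In H4, Hist4h4 had 1016 and 1120 CPM at E12.5 and 502 and 359 at P0, a log2 change of -1.33 (limma adjusted p = 0.00011), whereas Hist1h4a had 7015 and 8528 CPM at E12.5 and 1813 and 1368 at P0, a change of -2.29 (limma adjusted p = 9.6e-06). The 11 Hist1 genes of H4 lay between -2.29 and -2.02, and Hist2h4, named after its values were seen, lay at -1.79. In H2B, Hist3h2ba had 1184 and 1721 CPM at E12.5 and 653 and 429 at P0, a change of -1.42 (limma adjusted p = 0.000722). Hist1h2bl had 9488 and 11072 CPM at E12.5 and 1503 and 1029 at P0, a change of -3.03 (limma adjusted p = 2.9e-06), and the 13 Hist1 genes of H2B lay between -3.03 and -2.78. Of the 2 Hist2 genes of H2B, Hist2h2be lay outside this range at -2.37 and Hist2h2bb, named after its values were seen, lay inside it at -2.81. From E14 to E15.5 the order of Hist2 and Hist1 genes in H2B was the other way round. The 2 Hist2 genes had a median of -1.34 and the 13 Hist1 genes one of -1.17. Hist3h2ba again had the smallest fall of the class, at -0.56. In H2A, Hist3h2a changed by -2.20, the 4 Hist2 genes had a median of -2.49 and the 14 Hist1 genes one of -3.03. H3 did not show this order: the 3 Hist2 genes, which are near-equal copies, had a median of -2.92 and the 9 Hist1 genes one of -2.85, from -2.97 in Hist1h3c to -2.74 in Hist1h3e. These differences between clusters were not tested.

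The row of Hist1h2aa had the largest fall of the H2A genes, from 1168 and 1245 CPM at E12.5 to 88.4 and 141 at P0, a log2 change of -3.41 (limma adjusted p = 3.3e-06). Since reads could match several places, whether these were reads of this testis gene or of other H2A copies is not known here. Hist1h2bc and Hist2h2be are, like Hist1h1c, known to give polyadenylated mRNA in differentiated cells. Over the period they changed by -2.97 and -2.37, further than Hist1h1c at -1.62. Within H2B, however, Hist2h2be fell less than the class median of -2.97. From E15.5 to E17 it had the smallest change of the class, -0.13 against a median of -0.57. These differences were not tested. With the limit set at 10%, Hist1h2bc fell into a near-equal group with Hist1h2bg, Hist1h2bk and Hist1h2bl. Its counts may therefore hold reads of those copies and need not show the course of its own mRNA. Hist2h2be had 1091 and 1274 CPM in the E12.5 libraries, 1351 and 1071 in those of E14, 486 and 449 in those of E15.5, 460 and 393 in those of E17 and 242 and 214 in those of P0. Its values at E12.5 and E14 overlapped.

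**Figure D5:**
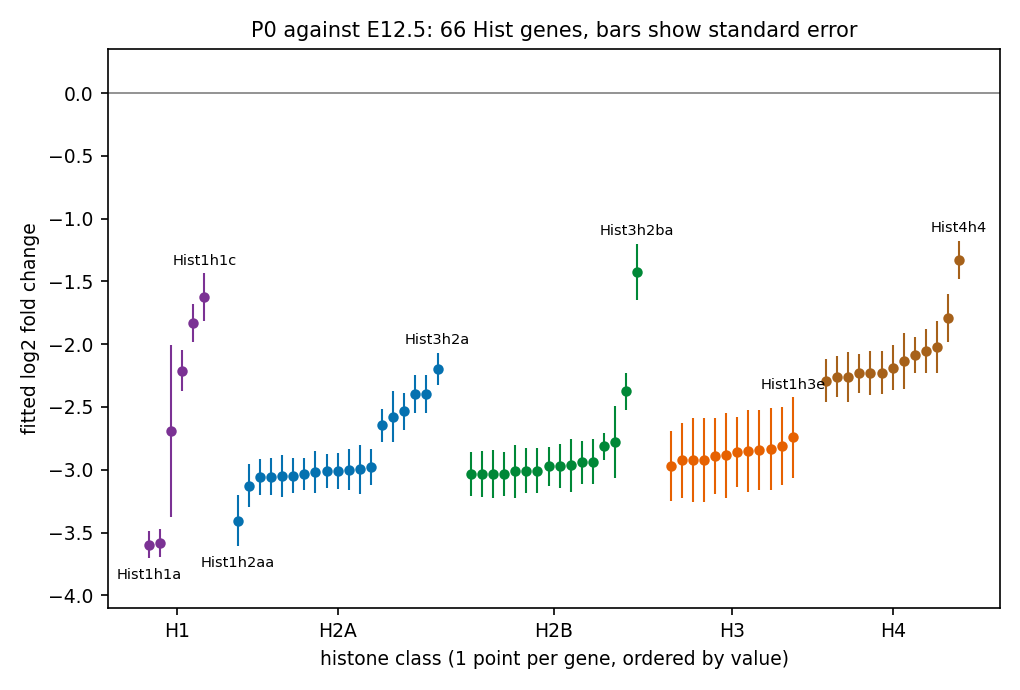
Fitted log2 fold change from E12.5 to P0 of the 66 Hist genes, 1 point per gene ordered within each class, with bars of 1 standard error. All points lie below 0, from -3.60 in Hist1h1a to -1.33 in Hist4h4.

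The genes that make and process histone mRNA did not all move with it. Of 19 tested genes of this list, 2 were called lower and 1 higher from E14 to E15.5 (median -0.05, background 19.6% lower and 16.5% higher), and 13 lower and 3 higher from E12.5 to P0 (median -0.70, background 32% lower and 30.1% higher). Slbp, whose product binds the stem-loop, had 299 and 305 CPM in the E12.5 libraries, 245 and 232 in those of E14, 157 and 149 in those of E15.5, 111 and 110 in those of E17 and 117 and 106 in those of P0. It fell from E14 to E15.5 by 0.64 on the log2 scale (limma adjusted p = 0.000971) and did not differ detectably between E17 and P0 (0.0097, limma adjusted p = 0.947). Npat, an activator of histone gene transcription, and Casp8ap2, a processing factor, changed by -1.04 and -1.17 over the period and were not called from E14 to E15.5. Both had at most 12.4 CPM in every library. Lsm11 and Lsm10, proteins of the U7 particle that cuts histone pre-mRNA, were higher at P0 than at E12.5 by 1.95 and 0.42 on the log2 scale. Their courses differed. Lsm11 had 7.59 and 7.07 CPM at E12.5, 11.2 and 12.1 CPM at E17 and 33.4 and 25.0 CPM at P0 (P0 against E12.5, limma adjusted p = 2.0e-05). Lsm10 had 19.1 and 20.1 CPM at E12.5, 34.9 and 35.6 CPM at E17 and 29.7 and 24.1 CPM at P0.

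Of the 15 histone chaperones and import factors, 11 were called lower and 1 higher from E12.5 to P0 (median -1.02, background 32% lower and 30.1% higher). Asf1b, which hands H3 and H4 to the replication machinery, had 11.77 and 12.49 CPM at E12.5 and 0.870 and 0.644 CPM at P0, a change of -4.13 (limma adjusted p = 1.2e-06). The subunits of chromatin assembly factor 1, Chaf1a and Chaf1b, changed by -2.39 and -1.98, and Nasp, a carrier of soluble histones, by -1.48. Of 20 companion genes of S phase, 20 were called lower over the period (median -2.97, background 32%) and 18 from E14 to E15.5 (median -0.93, background 19.6%). From E12.5 to E14, all 20 were fitted below 0 with a median of -0.46 and 2 were called lower (background 0.141%), beside the -0.15 of the histone genes at this step. Pcna, the sliding clamp of replication, had 291 and 283 CPM at E12.5 and 50.5 and 71.6 at P0, a change of -2.23 (limma adjusted p = 6.7e-06).

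Of 11 replication-independent histone variants, 8 were called lower and 0 higher over the period (median -1.77, background 32% lower and 30.1% higher). H2afj and H2afx, named after their values were seen, had 4530 and 5002 CPM and 2859 and 3044 CPM at E12.5. At P0 they had 582 and 579 CPM and 420 and 367 CPM. Since reads could match several places, whether their counts hold reads of the H2A genes of the Hist set is not known here. H3f3b, which encodes the H3 variant deposited outside S phase, had 1753 and 2175 CPM at E12.5 and 2557 and 1891 CPM at P0, so that its values at P0 spanned part of the E12.5 range. Its change of 0.18 was not called (limma adjusted p = 0.359), and without P0 replicate 1 it was -0.04.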

How the data were processed

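The authors trimmed footprint reads, collapsed duplicates, removed reads matching rRNA, tRNA and snoRNA, and aligned the rest to GENCODE M12 with STAR (version 2.7.0 per the labels), keeping reads that matched many places. The deposited table holds whole-number counts per gene for 10 libraries. The study's methods also name DeepShape-prime, which estimates transcript abundances from footprints, and tximport, which turns these into gene-level counts corrected for length. Whether the deposited whole-number counts came from that step, and so how reads matching several genes were assigned in them, is not given in the sources used here. Ensembl identifiers were matched to symbols for 22274 of 22373 genes, and 99 did not match.

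Genes with at least 32 footprints in a stage were kept (13484). Library sizes were scaled by TMM, and limma-voom (limma 3.58.1, edgeR 4.0.16, R 4.3.3) was fitted to all libraries, with Benjamini-Hochberg adjustment over all genes. The code was tested on simulated data. DESeq2 1.42.0 and the edgeR quasi-likelihood test were alternatives. Members, lists and tests were chosen with earlier results of these data known. The text names, per class, the 3 members with the highest mean CPM, the extremes of the change from E12.5 to P0 among members with at least 100 mean counts, near-equal copies, members known to give polyadenylated mRNA, and 11 genes of related pathways. Promoters came from RefSeq (GRCm38.p6).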

Additional observations from a re-analysis of the deposited data

How the results depend on the processing

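For the step from E14 to E15.5, and over the period from E12.5 to P0, none of 25 named members refitted under each alternative changed direction. Without library-composition scaling (total counts only) the members' medians in these comparisons were -0.9494 and -2.341, while the median of all genes shifted to 0.285 and 0.514 and genes called lower made up 27.3% and 28% of all calls, against 54.4% and 51.5%. From E12.5 to E14, DESeq2 and sample quality weights each called 1 member lower, and leaving out 1 library gave 0 to 1. From E15.5 to E17 the 7 calls became 3 with total counts, 4 with DESeq2 size factors, 3 without the filter, 29 with DESeq2, 61 with quality weights, 61 with only the stages compared, and 0 to 50 when 1 library was left out. From E17 to P0 the 39 became 0 with only the stages compared and 7 to 64 when 1 library was left out. The median from E12.5 to P0 ranged from -3.212 to -2.345 when 1 library was left out. The cause was not tested.

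Replicate numbers are shared across stages, but the deviations of same-numbered libraries correlated between -0.641 and 0.429, so the numbers were not taken to pair samples. With a replicate block 0, 64, 6, 37 and 66 members were called lower in the 5 comparisons.

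Near-equal copies numbered 40 within 10%. Without the most abundant member of each class, all Hist genes held 32.39%, 30.23%, 15.92% and 11.42% of counts from E12.5 to E17, and counting 1 member per class (chosen after seeing the data) 5.76%, 5.244%, 2.372%, 1.645% and, at P0, 0.9626%. Without its most abundant member, H1 held 0.5158%, 0.4612%, 0.2418%, 0.1822% and 0.1399% from E12.5 to P0, H2A 7.683%, 7.171% and 3.348% from E12.5 to E15.5, and H2B 11.93%, 11.07%, 6.033% and 4.191% from E12.5 to E17. H3 held 5.82%, 2.971% and 1.987%, and H4 5.714%, 3.324% and 2.647%, from E14 to E17.

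Small uncalled changes turned direction. From E12.5 to E14, over fits without 1 library each, the log2 change ranged from -0.1689 to 0.1099 for Hist3h2a, from -0.3973 to 0.1422 for Hist3h2ba, from -0.3718 to 0.07158 for Hist1h3b, from -0.3757 to 0.08842 for Hist1h3h, from -0.3576 to 0.09023 for Hist1h3d, from -0.367 to 0.01158 for Hist1h3c, from -0.3891 to 0.06571 for Hist1h3e, from -0.3067 to 0.08814 for Hist1h4h and from -0.1364 to 0.2003 for Hist2h2be. Each upper end but that of Hist2h2be was without E12.5 replicate 2. Hist3h2a was at 0.02756 with total counts. At the step to E15.5, Npat was at 0.12 and Casp8ap2 at 0.2429 with total counts, and Casp8ap2 ranged from -0.167 to 0.08372 without 1 library. At the step to E17, H3f3b was at 0.006347 with total counts. At the step to P0, leaving out P0 replicate 1 or P0 replicate 2 gave the ends of the range for Hist1h1c (-0.6554 and 0.04545), Hist1h1e (-0.4995 and 0.02012), Hist4h4 (-0.3603 and 0.1519), Chaf1b (-0.4214 and 0.07443), H3f3b (-0.3558 and 0.1077), Slbp (-0.05292 and 0.1136) and Nasp (0.1361 and -0.612), and Slbp was at -0.01777 without the filter. Over the whole period H3f3b ranged from -0.04039 to 0.4231.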
